A study of Oryza sativa with 9 samples.

Results

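The tapetum regulators described here are 8 rice genes, listed by their identifiers for their known roles. The choice was made with earlier results of these data known. All 8 genes were found among the 37863 genes of the expression table. They are *MSP1* (Os01g0917500), *TDL1A* (Os12g0472500), *UDT1* (Os07g0549600), *GAMYB* (Os01g0812000), *TIP2* (Os01g0293100), *TDR* (Os02g0120500), *EAT1* (Os04g0599300) and *PTC1* (Os09g0449000). RNA-seq libraries came from whole young panicles of 3 genotypes, 3 libraries for each. ZH11-OE1 is a line of the *japonica* variety Zhonghua11 that overexpresses the grain shape gene *GSE9* from the *ubiquitin* promoter. ZH11-KO1 is a CRISPR/Cas9 knockout line of *GSE9* in the same variety, and ZH11 is the untransformed wild type. Each transgenic genotype was sequenced as 1 line, so effects of that line and of *GSE9* cannot be told apart. The labels place the harvest before the heading date and the methods place it before anthesis, and no panicle length or anther stage is given for any library.

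The tapetum is the innermost layer of the anther wall. It lies against the meiocytes, feeds the developing microspores, makes the precursors of the pollen wall and then breaks down by programmed cell death. Its formation in rice runs through a known order of regulators. A receptor kinase and its ligand set the identity of the wall layers, a first group of transcription factors starts tapetal differentiation around meiosis, and a chain of bHLH factors and a PHD-finger protein then drives late tapetal function and cell death. The ratio of later to earlier acting members therefore changes as an anther develops, which is why the members were set against each other here.

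The libraries held between 13357430 and 15453015 reads assigned to genes, as worked back from the deposited FPKM values, and the deepest was 1.15 times as deep as the shallowest. FPKM is a fragment count scaled to the length of the gene and to the size of the library, so levels can be set beside each other. Differences in scale between libraries can remain. The FPKM sums ran from 635209 in ZH11-OE1 replicate 2 to 701261 in ZH11-KO1 replicate 1. ZH11 replicate 3 gave the lowest of the 3 ZH11 values for all 8 members. ZH11 replicate 1 was the highest wild-type library for 5 members and ZH11 replicate 2 for *TDR*, *EAT1* and *PTC1*. The level of *GSE9* was not analysed here.

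The 4 later acting members were higher on average in ZH11-OE1 and in ZH11-KO1 than in ZH11, while the 4 earlier acting members showed no common direction. *PTC1*, the last gene of the chain, rose most, with a ratio of mean FPKM of 3.04 in ZH11-OE1 and 2.53 in ZH11-KO1 over ZH11. *EAT1* rose in both lines and *TDR* in ZH11-KO1. *UDT1* was lower in every library of each line than in any ZH11 library, but did not pass the test. Between ZH11-OE1 and ZH11-KO1 no member passed the test.

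Genes were called changed at an adjusted p under 0.05 from limma on log2(FPKM + 1). The test covered 21780 genes whose mean over the libraries reached 1 FPKM, a filter that all 8 members passed. In ZH11-OE1 against ZH11, 2 of 8 members were called, where 13.8% of all tested genes were, and both rose, where 820 of the tested genes rose and 2179 fell. Under median-of-ratios scaling that split of all genes was 1222 higher and 1767 lower, and under quantile scaling 1157 and 1713. In ZH11-KO1 against ZH11, 3 of 8 members were called, where 8.60% of all tested genes were, and all 3 rose, where 1090 of the tested genes rose and 782 fell. At an unadjusted p under 0.05, 5 of 8 members passed in ZH11-OE1, where 30.5% of all tested genes did, and 4 of 8 in ZH11-KO1, where 25.7% did, *UDT1* among them in the lower direction in each line. Both comparisons share the ZH11 libraries, so their results are not independent of each other. A fold change on the log2(FPKM + 1) scale understates the change of genes near 1 FPKM.

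**Figure D1:**
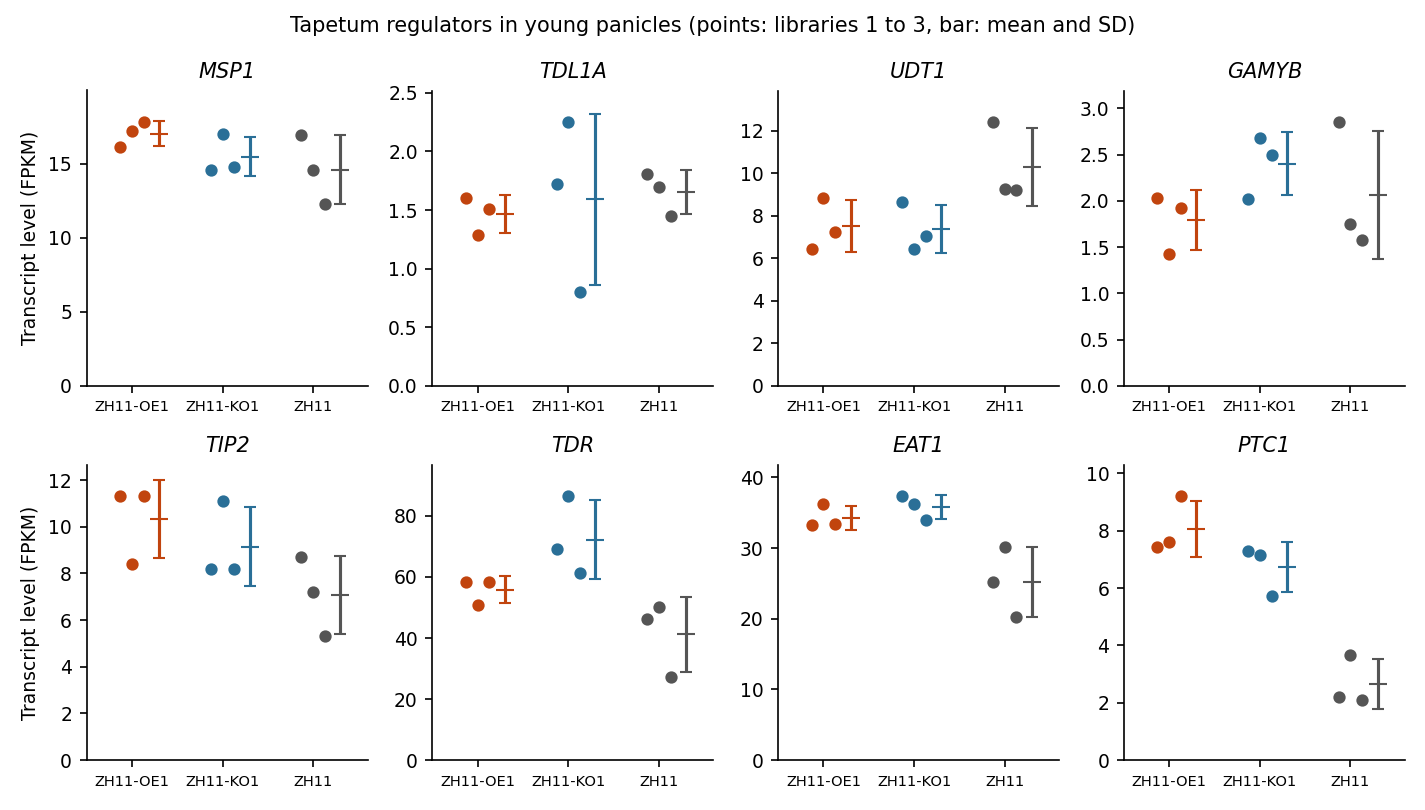
Transcript levels of the 8 members in FPKM (vertical axis, starting at 0 in each panel) in ZH11-OE1, ZH11-KO1 and ZH11. Points are single libraries and the bar beside them is the mean with its SD (n = 3). All *PTC1* points of ZH11-OE1 and ZH11-KO1, the lowest of them 5.73 FPKM, lie above the highest ZH11 point of 3.68 FPKM.

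*MSP1* encodes the leucine-rich repeat receptor kinase that limits the number of cells entering sporogenesis and sets up the inner anther wall. Its level was 16.1, 17.2 and 17.8 FPKM in ZH11-OE1, 14.6, 17.0 and 14.8 FPKM in ZH11-KO1, and 16.9, 14.6 and 12.3 FPKM in ZH11. The 3 genotypes overlapped. The log2 fold change was 0.22 (SE 0.117, adjusted p = 0.238, limma) in ZH11-OE1 and 0.08 (adjusted p = 0.703, limma) in ZH11-KO1 against ZH11. Without ZH11 replicate 3 these were 0.11 and -0.03.

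*TDL1A* encodes the small secreted ligand of MSP1. It was the lowest member in every genotype, at 1.6, 1.29 and 1.51 FPKM in ZH11-OE1, 1.72, 2.25 and 0.803 FPKM in ZH11-KO1, and 1.81, 1.7 and 1.45 FPKM in ZH11. These values rested on 12 to 35 reads per library. The 3 ZH11-KO1 libraries spanned the range of all others, and the fold changes against ZH11 of -0.11 in ZH11-OE1 (95% interval -0.55 to 0.33) and -0.07 in ZH11-KO1 (95% interval -0.51 to 0.37) left room for a change in either direction. The receptor thus stood at about the middle of the expressed genes (percentile 58.2 of the tested genes in ZH11) and its ligand near the bottom (percentile 7.9).

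*UDT1* encodes a bHLH factor needed for the young tapetum to differentiate during early meiosis. It had 6.42, 8.83 and 7.25 FPKM in ZH11-OE1 and 8.65, 6.45 and 7.07 FPKM in ZH11-KO1, against 12.4, 9.25 and 9.19 FPKM in ZH11. Every library of the transgenic lines was below every ZH11 library. Libraries that did not overlap with ZH11 in either direction were found for 4 of 8 members in each line, where 33.8% of tested genes showed this in ZH11-OE1 (21.2% lower, 12.6% higher) and 30.2% in ZH11-KO1 (16.0% lower, 14.2% higher). The log2 fold changes were -0.40 (SE 0.154, adjusted p = 0.105, limma) in ZH11-OE1 and -0.42 (SE 0.154, adjusted p = 0.117, limma) in ZH11-KO1. When replicate number was fitted as a block to ZH11-KO1 and ZH11 alone, *UDT1* passed as lower in ZH11-KO1 (adjusted p = 0.0418, limma). No label states that these numbers mark a shared batch. With the replicate block in the fit of all 9 libraries 0 members were called lower.

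*GAMYB* encodes a gibberellin-regulated MYB factor that acts beside *UDT1* in early tapetal differentiation. Its level was low, at 2.03, 1.43 and 1.92 FPKM in ZH11-OE1, 2.02, 2.68 and 2.5 FPKM in ZH11-KO1, and 2.85, 1.75 and 1.58 FPKM in ZH11, from 56 to 105 reads per library. The ZH11 libraries spanned almost the whole range of the other 6. The fold change was -0.12 (adjusted p = 0.694, limma) in ZH11-OE1 and 0.17 (adjusted p = 0.591, limma) in ZH11-KO1, and the first turned to 0.06 without ZH11 replicate 1, the highest library. The second was 0.35 without that library and 0.06 without ZH11 replicate 3.

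*TIP2*, also named bHLH142, encodes the bHLH factor that acts upstream of *TDR* and *EAT1*. It had 11.3, 8.41 and 11.3 FPKM in ZH11-OE1 and 8.18, 11.1 and 8.17 FPKM in ZH11-KO1, against 8.7, 7.2 and 5.34 FPKM in ZH11. In each line 1 or more libraries fell within the ZH11 range. The log2 fold change was 0.50 (SE 0.18, adjusted p = 0.091, limma) in ZH11-OE1 and 0.34 (SE 0.18, adjusted p = 0.269, limma) in ZH11-KO1, so that *TIP2* passed in neither. Without ZH11 replicate 3 the ZH11-KO1 value was 0.17.

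*TDR* encodes the bHLH factor whose loss delays tapetal degeneration. It was the most abundant member in every library, with 58.4, 50.9 and 58.3 FPKM in ZH11-OE1 and 69.1, 86.4 and 61.3 FPKM in ZH11-KO1, against 46.4, 50.2 and 27.2 FPKM in ZH11. All libraries of both lines were above all ZH11 libraries, but the lowest ZH11-OE1 library, at 50.9 FPKM, was hardly above the highest ZH11 library, at 50.2 FPKM. The log2 fold change was 0.83 (SE 0.204, adjusted p = 0.0347, limma) in ZH11-KO1 and 0.47 (SE 0.204, adjusted p = 0.147, limma) in ZH11-OE1. Without ZH11 replicate 3 the ZH11-OE1 value was 0.20. The ZH11-KO1 call was lost without ZH11 replicate 3 (0.56, adjusted p = 0.065, limma), ZH11-KO1 replicate 2 (adjusted p = 0.137), ZH11-KO1 replicate 1 (adjusted p = 0.0675) or ZH11-OE1 replicate 1, which enters through the shared spread (adjusted p = 0.0544).

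*EAT1* encodes the bHLH factor that switches on aspartic proteases in the dying tapetum. It had 33.2, 36.2 and 33.4 FPKM in ZH11-OE1 and 37.3, 36.2 and 34.0 FPKM in ZH11-KO1, against 25.2, 30.2 and 20.2 FPKM in ZH11. The 6 transgenic libraries lay close together and above all 3 ZH11 libraries. The log2 fold change was 0.45 (SE 0.125, adjusted p = 0.0414, limma) in ZH11-OE1 and 0.51 (SE 0.125, adjusted p = 0.0347, limma) in ZH11-KO1.

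The *EAT1* calls were near the threshold. Without ZH11 replicate 3 the log2 fold changes were 0.30 (adjusted p = 0.076, limma) in ZH11-OE1 and 0.36 (adjusted p = 0.094, limma) in ZH11-KO1. The ZH11-OE1 call was also lost without ZH11 replicate 1, any ZH11-OE1 library, or ZH11-KO1 replicate 1 or 2, at adjusted p from 0.0505 to 0.131 (limma). The ZH11-KO1 call was also lost without ZH11 replicate 1, any ZH11-KO1 library, or ZH11-OE1 replicate 1, at adjusted p from 0.0522 to 0.119 (limma). The direction was the same under all 19 alternatives in each comparison.

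*PTC1* encodes a PHD-finger protein, the rice counterpart of Arabidopsis MALE STERILITY1, which acts late in tapetal death and pollen wall formation. Its level was 7.42, 7.61 and 9.2 FPKM in ZH11-OE1 and 7.3, 7.16 and 5.73 FPKM in ZH11-KO1, against 2.2, 3.68 and 2.11 FPKM in ZH11, from 74 to 337 reads per library. The lowest transgenic library stood well clear of the highest ZH11 library. The log2 fold change was 1.33 (SE 0.171, adjusted p = 0.00207, limma) in ZH11-OE1 and 1.10 (SE 0.171, adjusted p = 0.00597, limma) in ZH11-KO1. *PTC1* passed under all 19 alternatives in both comparisons, with adjusted p at most 0.0308 in ZH11-OE1 and 0.0462 in ZH11-KO1 (limma).

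**Figure D2:**
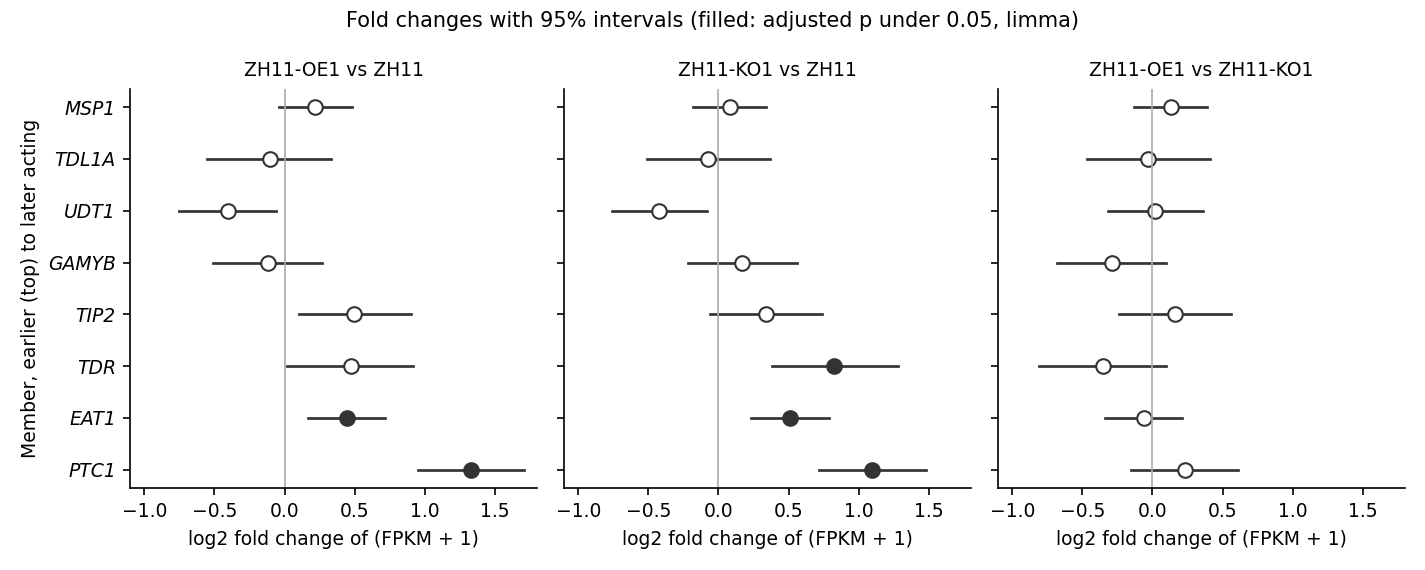
Log2 fold change of (FPKM + 1) of each member (horizontal axis) with its 95% interval in ZH11-OE1 against ZH11, ZH11-KO1 against ZH11 and ZH11-OE1 against ZH11-KO1, the members running from earlier to later acting down the page. Filled points have an adjusted p under 0.05, and *PTC1* lies farthest to the right at 1.33 and 1.10 in the comparisons with ZH11.

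ZH11-OE1 and ZH11-KO1 carry opposite changes of *GSE9*, and the design therefore allows them to be set against each other. Among the members 0 of 8 were called, where 23.9% of tested genes were, and 0 had an unadjusted p under 0.05 in limma, where 38.8% of tested genes had. By limma-voom on the recovered reads 0 were called. *TDR* was lower in every ZH11-OE1 library than in any ZH11-KO1 library, with a log2 fold change of -0.35 (95% interval -0.81 to 0.10, adjusted p = 0.224, limma). *PTC1* was higher in every ZH11-OE1 library, with 0.23 (95% interval -0.15 to 0.61, adjusted p = 0.339, limma). Such separation of the libraries, seen in 2 of 8 members, was found for 43.9% of tested genes, 25.1% in the lower and 18.8% in the higher direction. The calls over all genes were 1761 higher and 3437 lower in ZH11-OE1, and 2966 higher and 2812 lower under quantile scaling. The interval for *EAT1* was the narrowest for a later acting member, from -0.34 to 0.21, and that for *UDT1* ran from -0.32 to 0.36. These intervals do not show that the lines were alike.

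The order of the members by mean level was the same at both ends in the 3 genotypes, with *TDR*, *EAT1* and *MSP1* at the top and *GAMYB* and *TDL1A* at the bottom, and differed in the middle. In ZH11-OE1 the middle ran *TIP2* (10.3 ± 1.67 FPKM), *PTC1* (8.08 ± 0.979 FPKM) and *UDT1* (7.5 ± 1.23 FPKM), and in ZH11-KO1 *TIP2* (9.15 ± 1.68 FPKM), *UDT1* (7.39 ± 1.13 FPKM) and *PTC1* (6.73 ± 0.868 FPKM; SD, n = 3 each). Neighbours in these 3 places overlapped in both lines. In ZH11 the middle ran *UDT1* (10.3 ± 1.81 FPKM), *TIP2* (7.08 ± 1.68 FPKM) and *PTC1* (2.66 ± 0.881 FPKM; SD, n = 3), each apart from the next in all libraries. *GAMYB* and *TDL1A* overlapped in every genotype, and *PTC1* overlapped *GAMYB* in ZH11 only.

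The ratio of *PTC1* to *UDT1* within a library does not depend on how libraries are scaled, and was chosen after the values were seen. It was 1.16, 0.861 and 1.27 in ZH11-OE1 and 0.843, 1.11 and 0.81 in ZH11-KO1, against 0.178, 0.397 and 0.229 in ZH11. The late gene was therefore about as abundant as the early one in the transgenic panicles and well below it in the wild type. The mean ratio was 1.1 ± 0.21 in ZH11-OE1, 0.921 ± 0.164 in ZH11-KO1 and 0.268 ± 0.115 in ZH11 (SD, n = 3 each).

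The same contrast was taken over all members as the mean log2(FPKM + 1) of *TIP2*, *TDR*, *EAT1* and *PTC1* minus that of *MSP1*, *TDL1A*, *UDT1* and *GAMYB*. This difference was 1.93, 1.82 and 1.95 in ZH11-OE1 and 1.84, 1.91 and 1.85 in ZH11-KO1, against 0.97, 1.42 and 0.94 in ZH11. All 6 transgenic libraries lay within a narrow band above the ZH11 libraries, and ZH11 replicate 2 was the nearest to them. The means were 1.90 ± 0.07, 1.87 ± 0.04 and 1.11 ± 0.27 in ZH11-OE1, ZH11-KO1 and ZH11 (SD, n = 3 each). It is given as a description, since the members of a chosen list carry no test of their own.

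The later acting members made up most of the difference. Their mean log2(FPKM + 1) was 4.42, 4.31 and 4.49 in ZH11-OE1 and 4.41, 4.57 and 4.26 in ZH11-KO1, against 3.81, 3.98 and 3.38 in ZH11. The mean of the earlier acting members was 2.49, 2.49 and 2.54 in ZH11-OE1 and 2.57, 2.66 and 2.41 in ZH11-KO1, against 2.83, 2.55 and 2.44 in ZH11, and the 3 genotypes overlapped. Within ZH11, replicates 1 and 3 had nearly the same difference although replicate 3 was lower in both means.

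**Figure D3:**
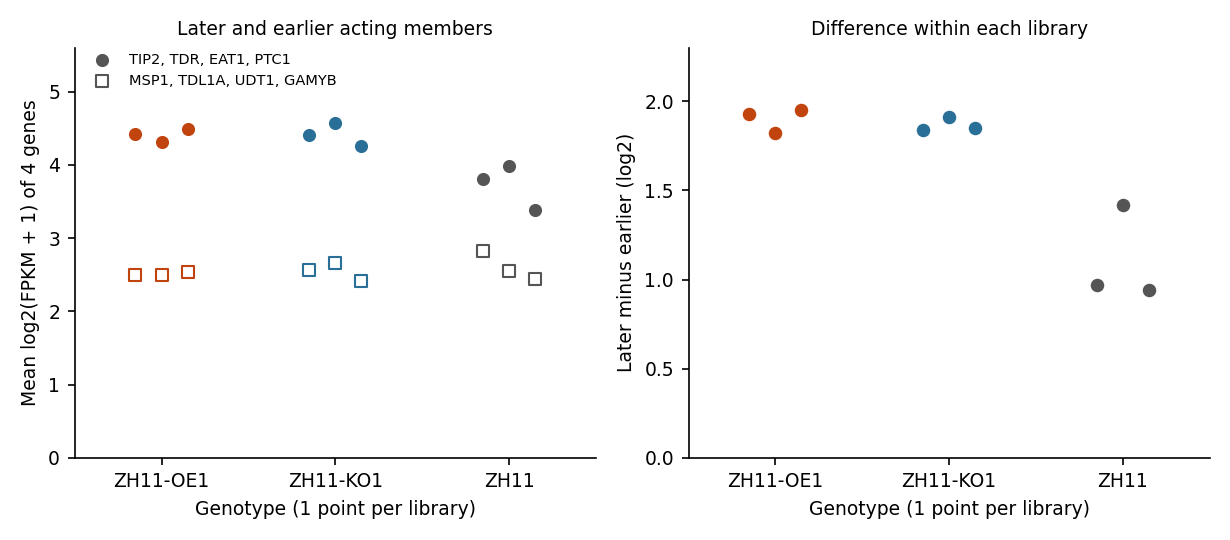
Left, the mean log2(FPKM + 1) of the later acting members (filled circles) and of the earlier acting members (open squares) in each library of ZH11-OE1, ZH11-KO1 and ZH11; right, their difference. The 6 transgenic libraries lie between 1.82 and 1.95 and the ZH11 libraries between 0.94 and 1.42.

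Genes that work below these regulators were followed through a list of 15 tapetum output genes. This list and the lists below were chosen with earlier results of these data known, so their counts are descriptions. The 15 are enzymes, transporters, lipid transfer proteins and proteases of pollen wall formation and tapetal death. Of these, 14 passed the filter. In ZH11-OE1 against ZH11, 9 rose and 1 fell, where 13.8% of all tested genes were called. The median log2 fold change was 0.95, and that of all tested genes was -0.041. In ZH11-KO1 against ZH11, 7 rose and 0 fell, where 8.60% of all tested genes were called. The median was 0.90, and that of all tested genes was -0.015. With the replicate block 9 rose in ZH11-KO1, with 0 lower in the fit of all 9 libraries and 1 lower in the fit of ZH11-KO1 and ZH11 alone, which without the block called 1 higher. Between the lines 0 were higher and 1 was lower in ZH11-OE1, where 23.9% of all tested genes were called, and the median was -0.07.

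The list was not uniform. Its fold changes ran from -2.08 to 1.70 in ZH11-OE1 and from -0.71 to 1.55 in ZH11-KO1, and 11 and 12 of the 14 were positive. Its summed level, which its most abundant genes set, was 4050 to 4750 FPKM in ZH11-OE1, 4680 to 6530 FPKM in ZH11-KO1 and 4480 to 6340 FPKM in ZH11 and did not follow the counts. The number called depended on single libraries. Without 1 ZH11-OE1 library, 3 to 6 rose in ZH11-OE1, and without 1 ZH11-KO1 library, 1 to 3 rose in ZH11-KO1, or 4 without ZH11-OE1 replicate 1. Without ZH11 replicate 1, 3 rose in ZH11-OE1 and 2 in ZH11-KO1, and without ZH11 replicate 3, 9 and 1 rose, with medians of 0.65 and 0.63. Without the filter on low values 0 were called in either line.

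A list of 8 other anther regulators had 7 in the table and 6 tested. Of these, 2 were called higher in ZH11-OE1 and 1 in ZH11-KO1, with none lower. In these comparisons 13.8% and 8.60% of all tested genes were called in either direction. The list had medians of 0.27 and 0.11, where all tested genes had -0.041 and -0.015. Most of its fold changes lay near 0 and the largest reached 1.58 in ZH11-OE1 and 1.41 in ZH11-KO1. With the replicate block, 2 were higher in ZH11-KO1, as without ZH11 replicate 2. The ZH11-KO1 count was 0 without the filter and with it at 5 FPKM, where 3 genes were tested. The ZH11-OE1 count was 3 with the replicate block in the fit of all 9 libraries. It was 1 in these filter settings, without the variance trend, and with only the 2 groups fitted, with or without the block. It was also 1 with any 1 ZH11-OE1 library left out, or ZH11-KO1 replicate 3, or ZH11 replicate 1 or 3.

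**Figure D4:**
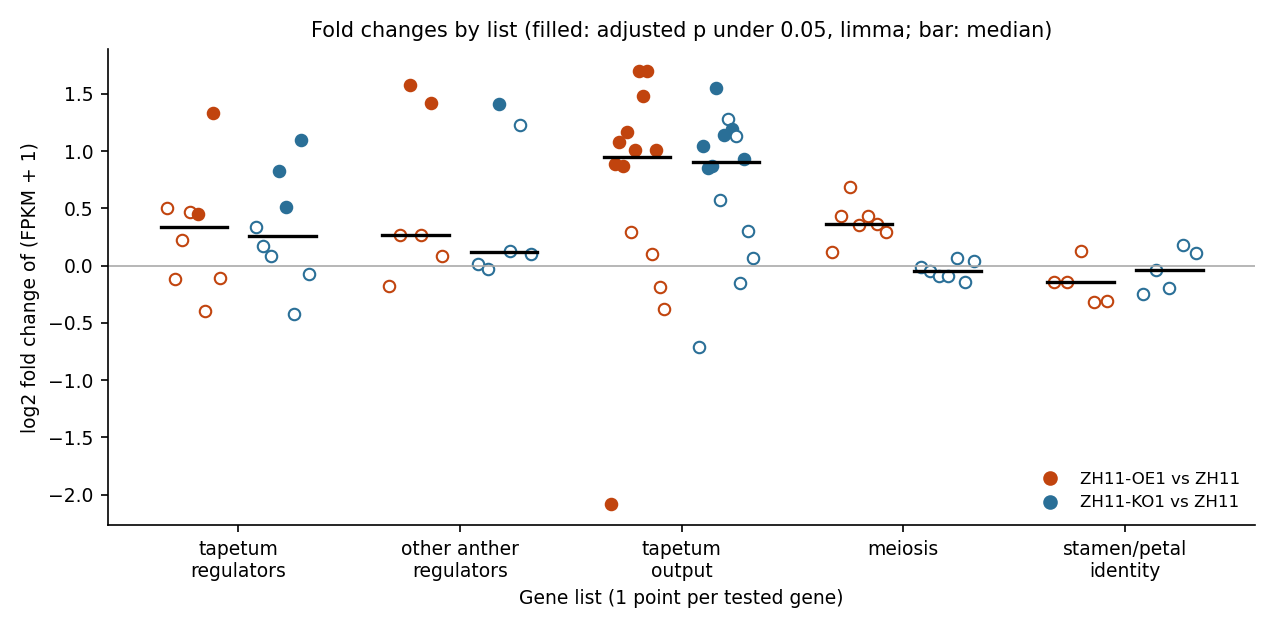
Log2 fold change of (FPKM + 1) (vertical axis) of each tested gene of 5 lists in ZH11-OE1 against ZH11 and in ZH11-KO1 against ZH11, with the median as a bar and genes of adjusted p under 0.05 filled. The tapetum output genes have medians of 0.95 and 0.90, and the meiosis genes medians of 0.36 and -0.05.

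Meiosis runs beside early tapetal differentiation, and 9 meiosis genes, 7 of them tested, were set beside the members. In ZH11-OE1 against ZH11, 0 were called by limma, where 13.8% of all tested genes were, and 2 by limma-voom on recovered reads. At an unadjusted p under 0.05 in limma 3 passed, where 30.5% of all tested genes did. All 7 fold changes were positive with a median of 0.36. By limma 2 were called higher with quantile scaling or with the replicate block in the fit of all 9 libraries, and 1 with median-of-ratios scaling, without the variance trend, with the filter at 5 FPKM, or without ZH11-OE1 replicate 1 or ZH11 replicate 3. In ZH11-KO1 against ZH11, 0 were called by limma, where 8.60% of all tested genes were, and 0 by limma-voom. At an unadjusted p under 0.05 in limma 0 passed, where 25.7% of all tested genes did. The median was -0.05. Between the lines, where 23.9% of all tested genes were called, 2 were higher in ZH11-OE1 and the median was 0.44. That count was 0 without ZH11-OE1 replicate 3, ZH11-KO1 replicate 1 or ZH11-KO1 replicate 2, and 4 with the replicate block in the fit of all 9 libraries.

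Of 7 genes of late pollen, 5 were under 1 FPKM in every library, 2 of these being listed at 0 throughout, and another reached 1.46 FPKM in 1 library. The remaining gene was expressed at 17.0, 16.5 and 14.3 FPKM in ZH11-OE1 and 34.2, 26.6 and 22.5 FPKM in ZH11-KO1, against 45.0, 32.5 and 23.2 FPKM in ZH11. It fell in ZH11-OE1, with a log2 fold change of -0.98, and the call was lost without ZH11-OE1 replicate 2, without ZH11-OE1 replicate 3 and without the filter. In ZH11-KO1 its fold change of -0.24 had no call, and was -0.01 without ZH11 replicate 1 and -0.47 without ZH11 replicate 3.

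The panicle is a mixture of organs, and in such samples fewer cells of a type and less RNA per cell cannot be told apart. All 5 stamen and petal identity genes were expressed, with a summed level of 545 to 626 FPKM in ZH11-OE1, 607 to 744 FPKM in ZH11-KO1 and 616 to 776 FPKM in ZH11. Against ZH11, 0 of them were called by limma or limma-voom in either line. At an unadjusted p under 0.05 in limma, 1 passed in ZH11-OE1 and 2 in ZH11-KO1, where 30.5% and 25.7% of all tested genes did. Between the lines 1 was called higher and 2 lower in ZH11-OE1, where 23.9% of all tested genes were called. The lower count was 1 under median-of-ratios scaling and 0 without the filter. The 6 spikelet hull genes summed to 1070 to 1260, 1000 to 1070 and 1090 to 1130 FPKM in ZH11-OE1, ZH11-KO1 and ZH11. Of them 1 was called lower in ZH11-KO1 than in ZH11, where 8.60% of all tested genes were called. That call was lost without ZH11-KO1 replicate 1, ZH11-KO1 replicate 2 or ZH11 replicate 3. Between the lines 1 hull gene was higher in ZH11-OE1, and 3 were under median-of-ratios scaling. The 2 carpel and ovule genes summed to 45.6 to 54.0, 44.8 to 53.5 and 49.3 to 59.6 FPKM. The 6 green tissue genes summed to 3320 to 4140 FPKM in ZH11-OE1, 5880 to 6600 FPKM in ZH11-KO1 and 5470 to 7680 FPKM in ZH11. Against ZH11, 3 were called lower in ZH11-OE1 and 0 were called in ZH11-KO1, where 13.8% and 8.60% of all tested genes were. The first count was 1 without ZH11-OE1 replicate 2 or ZH11 replicate 1, 2 without ZH11-OE1 replicate 1, and 0 without the filter. The second was 1 lower with the replicate block in the fit of ZH11-KO1 and ZH11 alone, and without ZH11-KO1 replicate 1 or ZH11 replicate 2. Between the lines 4 green tissue genes were lower in ZH11-OE1, and 0 without the filter. No gene of these 4 marker lists was at 0. The part of organ makeup in the members' differences was not tested, and the genotype and the stage of the anthers at harvest cannot be told apart.

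Across the 9 libraries Pearson r between pairs of later acting members ran from 0.665 for *TIP2* and *EAT1* to 0.898 for *EAT1* and *PTC1*. A high value was not particular to them, since *MSP1*, an earlier acting member, reached 0.848 with *TIP2*. *UDT1* ran against *PTC1*, at -0.737. These are descriptions over 9 libraries that share 3 genotypes, so the difference between the transgenic lines and ZH11 enters each of them. The gene most like *PTC1* was Os04g0500900 (r = 0.993). The gene most like *EAT1* was Os06g0607700 (r = 0.988), which is also in the list of tapetum output genes. Over 0.9 there were 197 tested genes for *PTC1*, 142 for *EAT1*, 111 for *TDR* and 67 for *UDT1*. For *GAMYB* there were 17, for *TIP2* 8, for *MSP1* 7 and for *TDL1A* 3.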

How the data were processed

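RNA was sequenced from young panicles of 3 genotypes with 3 biological replicates each. Per the labels and methods, the authors mapped filtered reads with HISAT2 to IRGSP-1.0, counted them per gene with featureCounts and tested counts with DESeq2; no strand setting is stated. The deposited table holds FPKM values, whose normalization was done by the authors. FPKM steps gave whole reads for 32186 of 32208 genes above 0 (99.93%, tolerance 1e-06 reads); these could share a common factor.

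A pseudocount of 1 was added to FPKM and log2 values were fitted by limma 3.58.1 (R 4.3.3), with a mean for each genotype, all 9 libraries and a moderated variance with trend. Tests were two-sided with Benjamini-Hochberg adjustment over genes averaging 1 FPKM or more and a threshold of 0.05. The fit was tested on simulated data for ZH11-OE1 against ZH11 only, drawn with independent normal noise and no pairing of libraries. The simulated spread followed the mean level only, so genes with a spread of their own were not covered. Each p-value sets a difference between genotypes against the spread between these libraries. For a transgenic genotype that spread covers libraries of a single line. Alternatives were a pseudocount of 0.1, median-of-ratios or quantile scaling, a filter at 5 FPKM or none, fits of only the groups compared, the replicate block, no variance trend and each library left out. limma-voom on recovered reads and the leaving out of single members were added after seeing the data. Deviations from the genotype mean were correlated between libraries. Same-numbered ZH11-KO1 and ZH11 libraries gave r = 0.278, 0.234 and 0.316, and their highest other pair -0.0218. Deviations cancel within a genotype, so positive same-numbered pairs push the other pairs down. Same-numbered pairs gave 0.0234, -0.0553 and -0.279 for ZH11-OE1 and ZH11, and 0.00125, -0.0649 and 0.0147 for ZH11-OE1 and ZH11-KO1. A differently numbered pair of ZH11-OE1 and ZH11 reached 0.274. Whether the numbers mark a shared batch is not stated, and the block was fitted only as an alternative.

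Named genes are all 8 members and, as a description, the most correlated gene of at most 2 of them. Member names match a RefSeq gene on the same chromosome for 8 of 8. The members and lists were chosen with earlier results of these data known. The identifiers of the other lists come from background knowledge. Apart from Os06g0607700 they are given as counts only. Coordinates and sequences were not used here.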

Additional observations from a re-analysis of the deposited data

How the results depend on the processing

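All 19 alternatives kept the *PTC1* calls. The number of members higher in ZH11-OE1 than in ZH11 (2) was 1 without the filter, with only the 2 groups fitted, with the replicate block in that fit and without the variance trend, and 1 to 2 with 1 library left out. The number higher in ZH11-KO1 (3) was 1 without the filter, with only the 2 groups and without the trend, and 1 to 3 with 1 library left out; the replicate block in the 2-group fit called 1 member lower (*UDT1*). That fit also called 3 members higher in ZH11-KO1, against 1 in the 2-group fit without the block. The block took *TDR* there from adjusted p = 0.0805 to 0.0107 (limma). It took *EAT1* from adjusted p = 0.0776 to 0.029 (limma). With the replicate block in the fit of all 9 libraries, 2 and 3 members were higher. The difference of later and earlier members was 0.70 to 0.94 (ZH11-OE1 against ZH11), 0.67 to 0.91 (ZH11-KO1 against ZH11) and 0.01 to 0.08 (ZH11-OE1 against ZH11-KO1) with 1 library left out. Leaving out *PTC1* gave 0.57 in ZH11-OE1 against ZH11; for ZH11-OE1 against ZH11-KO1 it was 0.09 without *MSP1*, -0.05 without *GAMYB*, -0.02 without *TIP2*, 0.15 without *TDR* and -0.04 without *PTC1*. Fold changes that turned sign were uncalled: with 1 library left out, *GAMYB* in ZH11-OE1 (-0.23 to 0.06), *MSP1* (-0.03 to 0.19) and *TDL1A* (-0.26 to 0.17) in ZH11-KO1, and *TDL1A* (-0.27 to 0.15; 0.09 after quantile normalization) and *UDT1* (-0.09 to 0.12) between the lines. The causes were not tested. Calls over all genes were 2999 in ZH11-OE1 (709 without the filter, 1245 with the replicate block in the 2-group fit, 1090 without ZH11-OE1 replicate 2 and 1130 without ZH11 replicate 1, to 3235 with 1 library left out), 1872 in ZH11-KO1 (545, 960 with only the 2 groups, 417 without ZH11-KO1 replicate 2 and 563 without ZH11 replicate 3, to 1993) and 5198 between the lines (3096 without the filter, 2336 without ZH11-OE1 replicate 2, to 5638). Of the ZH11-OE1 calls 27.3% were higher, against 40.9% with median-of-ratios and 40.3% with quantile scaling; between the lines these were 33.9%, 44.1% and 51.3%. Depth limits *TDL1A* and *GAMYB* most.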
